A study of Mus musculus with 4 samples.

Results

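The regions described here are the stretches of the mouse autosomes in which few peaks were found after chromatin immunoprecipitation with antibodies to pRb. They were chosen by the number of peaks in the list from arrested cells: chromosomes 1 to 19 without chromosome 7 were divided into 1 Mb windows by peak start, and a window was taken as sparse when it held at least 1 arrested peak and at most about 50% of the median of 277 per window. This gave 33 sparse windows of 2273 windows with arrested peaks. Their members are 2869 peaks of the 809030 peaks in both lists, made up of 2485 of 699290 arrested peaks (0.355%) and 384 of 109740 proliferating peaks (0.350%).

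The chromatin came from C57BL/6 mouse embryonic fibroblasts, primary connective tissue cells of E13.5 embryos used at passage 4 and fixed with ethylene glycol bissuccinimidylsuccinate and formaldehyde. One group was proliferating asynchronously in 10% serum, and the other was arrested in 0.1% serum for 72 hours. Each group is 1 immunoprecipitated library with 1 deposited peak list. The titles are ChIP_Rb_proliferating_KO and ChIP_Rb_arrested_KO, and the inputs, which had no antibody, also carry Rb and KO. No label says whether Rb there is the deleted gene or the antibody's target, so the sources used here leave unstated whether these cells had pRb, and both groups share whatever was deleted. The labels name 5 antibody sources for pRb, M153, C15, S855, M136 and Hyb4.1, without saying how they were combined. The inputs and any wild-type reference were not analysed here.

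pRb, the product of the retinoblastoma gene, is recruited to chromatin by E2F transcription factors and holds cell cycle genes silent while it is unphosphorylated. It is best known at promoters of E2F targets, and the title of the series concerns its action at endogenous retroelements, which are repeated sequences dispersed over the chromosomes. Parts of the mouse genome also consist of large gene families in which similar copies lie side by side. Among those of chromosome 4 are the major urinary protein genes (Mup, carriers of scent molecules), the Skint genes (immunoglobulin-like genes of skin and thymus) and copies of the Ccl21 and Ccl27 chemokine genes. Distal chromosome 2 carries an array of zinc-finger genes, and proximal chromosome 8 the defensins, which are antimicrobial peptides. These locations are general knowledge of the mouse genome. No mm9 annotation or genome was used here, so the windows are given by position, no sequence is printed, and no gene was assigned to a peak.

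The sparse windows were not spread over all chromosomes. They lay on 12 of the 18 chromosomes used. Chromosomes 12 and 14 had the most: on chromosome 14 the windows from 3 to 8 Mb formed a run of 5, which starts with the first window of that chromosome that holds peaks, and on chromosome 12 those from 22 to 25 Mb formed a run of 3. A further 8 windows were adjacent pairs, from 175 to 177 Mb on chromosome 2, 112 to 114 Mb on chromosome 4, 56 to 58 Mb on chromosome 8 and 18 to 20 Mb on chromosome 12. The other 17 stood alone. The last window with peaks was sparse on 9 of the 18 chromosomes, and the first on 1.

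The fewest arrested peaks, 3, were in the window from 20 to 21 Mb on chromosome 8, which is in the region of the defensin genes. The windows from 175 to 176 Mb on chromosome 2 and from 124 to 125 Mb on chromosome 9 held 13 each, and that from 57 to 58 Mb on chromosome 8 held 23. Next came those from 5 to 6 Mb on chromosome 14 with 43, from 197 to 198 Mb on chromosome 1 and from 24 to 25 Mb on chromosome 12 with 46 each, from 176 to 177 Mb on chromosome 2 with 48, and from 23 to 24 Mb on chromosome 12 with 50. The tenth place was shared at 52 by the windows from 3 to 4 Mb on chromosome 14 and from 112 to 113 Mb on chromosome 4, the latter in the region of the Skint genes. Those from 124 Mb on chromosome 9 and 197 Mb on chromosome 1 are the last of their chromosomes and may be shorter than 1 Mb. Outside peak-free stretches of at least 50 kb they held 284 and 237 arrested peaks per Mb.

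Just inside the limit were the window from 60 to 61 Mb on chromosome 4, in the region of the Mup genes, whose arrested count is the limit itself, that from 22 to 23 Mb on chromosome 8 with 136, those from 19 to 20 Mb on chromosome 12 and 152 to 153 Mb on chromosome 5 with 130 each, and lastly 11 to 12 Mb on chromosome 5 with 124. Just outside it were the last windows of chromosomes 15 and 4, with 140 and 141, then 53 to 54 Mb on chromosome 14 with 143, the last window of chromosome 6 with 155, and 143 to 144 Mb on chromosome 5 with 160. Of those inside, the window from 152 to 153 Mb on chromosome 5 is also the last of its chromosome. The counts on either side of the limit thus differ little.

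Proliferating cells also had few peaks in the sparse windows. Their list did not choose the windows, although it shares the genome, the build and the mapping with the one that did. The sparse windows include 9 last windows of chromosomes, which may be shorter than 1 Mb, and missing length lowers the count in both lists. The low proliferating counts are therefore no independent check. The median was 11 proliferating peaks per sparse window, from 2 to 26, against 44 in the other 2240 windows (7 to 121). Of the 33 sparse windows, 31 held at most 21 proliferating peaks, which is 50% of the median rounded down. Of all 2273 windows 2.24% did. The 2 exceptions were the Mup-region window on chromosome 4 with 26 and the last window of chromosome 19, from 61 to 62 Mb, with 22. Next in order came the windows from 85 to 86 Mb on chromosome 1 and 11 to 12 Mb on chromosome 5 with 20 each, and from 92 to 93 Mb on chromosome 13 with 19.

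At the low end, the defensin-region window on chromosome 8 held 2 proliferating peaks and its chromosome's window from 57 to 58 Mb held 3. Windows with 4 were those from 175 to 177 Mb on chromosome 2, from 112 to 113 Mb on chromosome 4, from 6 to 7 Mb and 125 to 126 Mb on chromosome 14, and from 124 to 125 Mb on chromosome 9. The windows from 125 to 126 Mb on chromosome 14 and 124 to 125 Mb on chromosome 9 are the last of their chromosomes. No sparse window was without proliferating peaks. A further 20 windows had few proliferating but more arrested peaks than the limit, with a median of 237 arrested peaks (143 to 292), and the median width of their arrested peaks, taken per window, was close to that of other windows at 168 bp.

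**Figure D1:**
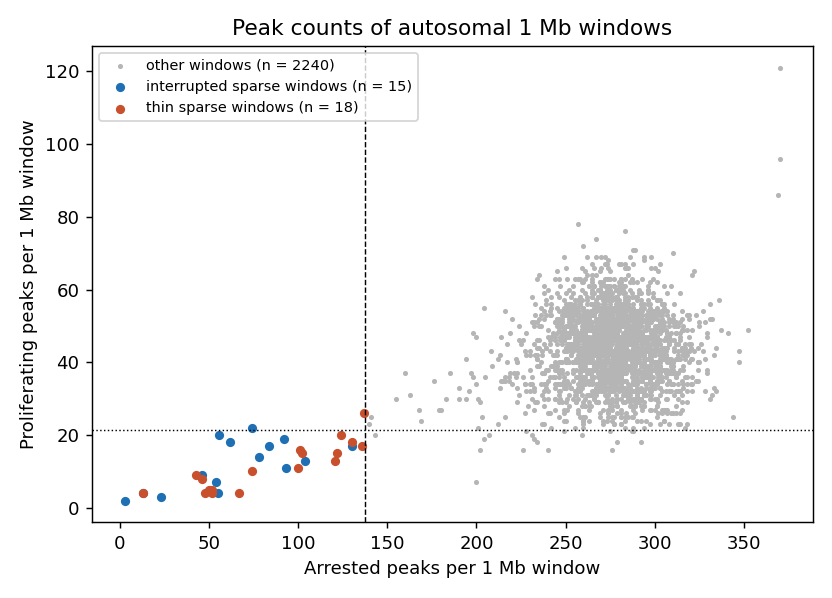
Arrested (x axis) against proliferating (y axis) peaks in each 1 Mb window, with 1 point per window: thin sparse windows (18), interrupted sparse windows (15), both defined in the text, and the other 2240. The dashed line marks the limit in arrested peaks and the dotted line 21 proliferating peaks; 31 of the 33 sparse windows lie below the dotted line.

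Pooled over sparse windows, the lists were in nearly the proportion seen elsewhere. Proliferating peaks made up 13.4% of the 2869 peaks (95% Wilson interval 12.2 to 14.7) and 13.7% of the peaks in other windows (13.6 to 13.8). Across the 33 sparse windows the arrested and proliferating counts went together, with a Pearson correlation of 0.75 and a Spearman correlation of 0.76. Across the other 2240 windows these were 0.09 and -0.0016. The windows were split by arrested count and sparse ones include last windows, which may be shorter than 1 Mb. The correlations of sparse and other windows are therefore not directly comparable. Windows of 1 list pair share the sequence they cover and are not replicates, so these values are descriptions with no p-value. Intervals throughout cover counting error only, and with 1 library per growth state no difference between growth states has a replicate check.

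The sparse windows were divided into arrangements by the positions of their peaks. In 15 windows the arrested peaks were missing from 1 long stretch of at least 400 kb, and these are called interrupted. Of them 9 were the last windows of their chromosomes, in which the stretch runs on to the window's border and includes any part beyond the chromosome's end. In the other 18, called thin, the longest peak-free stretch was at most 329 kb. Stretches of at least 50 kb together took up 0 to 845 kb of a thin window, so some of these were mostly empty too. The limit of 400 kb was chosen after the stretches were seen; no window lay between 329 and 469 kb. Proliferating peaks made up 11.8% of all peaks in thin windows (interval 10.4 to 13.46) and 15.7% in interrupted windows (13.7 to 17.9). Across thin windows, which include no last window, arrested and proliferating counts had a Pearson correlation of 0.89 and a Spearman correlation of 0.87. Across interrupted windows these were 0.68 and 0.63. These values too are descriptions of windows chosen by arrested count.

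In the interrupted windows the density outside the long stretch was close to the usual one. The part outside peak-free stretches of at least 50 kb came to 3.845 Mb, with 252 arrested and 46.8 proliferating peaks per Mb. The other windows had 276 and 43.7 per Mb. Single windows ranged from 78.8 arrested peaks per Mb in the defensin-region window, where only 38.1 kb lay outside, to 342 in the last window of chromosome 17, from 95 to 96 Mb. Thin windows, which by definition have few arrested peaks and no long stretch, stayed low after the same step. Their 12.24 Mb outside such stretches held 124 arrested and 16.7 proliferating peaks per Mb, and the densest thin window, the Mup-region one, had 168 arrested and 31.9 proliferating peaks per Mb. The lowest densities were 73.5 arrested and 7.07 proliferating peaks per Mb, in the window from 3 to 4 Mb on chromosome 14.

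**Figure D2:**
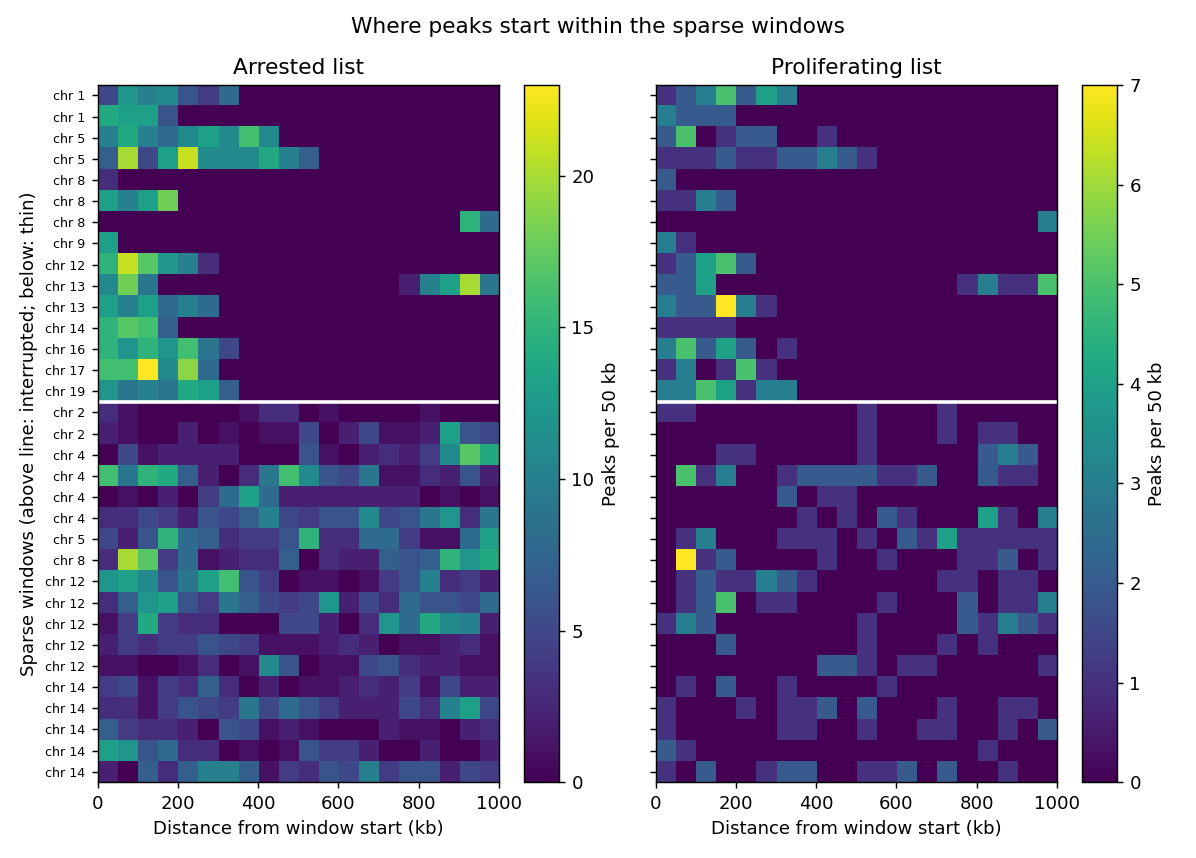
Number of peak starts per 50 kb (colour) along each of the 33 sparse windows, with the distance from the window's start in kb on the x axis and 1 line per window, labelled by chromosome; the left panel is the arrested and the right panel the proliferating list, each with its own colour scale. The 15 interrupted windows above the white line are empty over 1 stretch of 469 kb or more in the arrested list. The 18 thin windows below it have no stretch that long.

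The longest stretches without an arrested peak in sparse windows held no proliferating peak either. Between neighbouring arrested peaks there were 5 intervals of at least 400 kb that touched sparse windows, 7.28 Mb in all. The longest ran over 2001 kb on chromosome 8 (20038078 to 22039003), 2000 kb on chromosome 1 (85343745 to 87344150) and 1716 kb on chromosome 8 (56194471 to 57910187), followed by 908 kb on chromosome 5 (25421711 to 26330071) and 657 kb on chromosome 13 (92137074 to 92793821). They held 0 proliferating peaks, which allows up to 0.412 per Mb (3 counts of the total length). The first and second of them also contain the whole windows from 21 to 22 Mb on chromosome 8 and 86 to 87 Mb on chromosome 1, which hold no arrested peak and are therefore no members. Away from sparse windows there was 1 interval of at least 400 kb, 410 kb on chromosome 1, and it also held 0 proliferating peaks.

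Shorter intervals were common in the thin windows. Apart from the 5 long ones, 65 intervals of at least 50 kb touched sparse windows and covered 6.486 Mb. Of these 41 held no proliferating peak and 24 held 27 peaks together, or 4.16 per Mb of the 65 intervals. The 93 intervals of 50 kb to below 400 kb elsewhere on the chromosomes used covered 6.733 Mb with 6.83 proliferating peaks per Mb. In the zinc-finger region of chromosome 2, the window from 175 to 176 Mb had 845 kb in 4 peak-free stretches, and its neighbour from 176 to 177 Mb had 563 kb in 7. The thin windows differed in these lengths: the windows from 113 to 114 Mb on chromosome 4 and 19 to 20 Mb on chromosome 12 had no stretch of 50 kb, with 121 and 130 arrested peaks scattered over the megabase, whereas the remaining 16 had at least 1.

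Wide spacing of arrested peaks in thin windows follows from the choice of windows with few arrested peaks and no long stretch, and is given as a description. The median distance from the end of an arrested peak to the start of the next in the same window was 4742 bp in thin windows (quartiles 1908 and 11603), 2295 bp in interrupted windows and 2289 bp in other windows. Among proliferating peaks, which did not enter the choice, the thin windows also had the largest median, with 38720 bp, against 12942 bp in interrupted and 14802 bp in other windows, and the 95% order-statistic interval for thin windows was 27835 to 47225 bp. For all sparse windows together the medians were 3519 and 20557 bp.

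The arrested peaks of thin windows were broad. Their median width was 318 bp (interval 311 to 328, 1518 peaks), against 166 bp in the other windows, where 617546 peaks lay. The median was 174 bp in interrupted windows (interval 170 to 198, 967 peaks). Of these, the last windows of chromosomes had 171 bp (interval 168 to 176, 635 peaks). The others, called internal, had 235.5 bp (interval 177 to 274, 332 peaks). Peaks of at least 300 bp made up 55.7% of thin-window peaks (interval 53.2 to 58.2), 33.3% of interrupted-window peaks and 24.1% of peaks elsewhere. Within interrupted windows the share was 40.7% in internal and 29.5% in last windows, so broader peaks were not limited to thin windows. The narrowest width of the arrested list, 144 bp, was found in 6.85% of thin-window and 11.9% of other peaks. Over all sparse windows the median was 285 bp (quartiles 163 and 391).

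In the proliferating list the peaks of sparse windows had ordinary widths. The medians were 152 bp in thin windows (interval 148 to 167, 204 peaks), 158 bp in interrupted windows (151 to 165, 180 peaks) and 153 bp in other windows. Peaks of at least 300 bp were 1.47% of thin-window peaks (interval 0.501 to 4.23) and 0.975% of other peaks. In the internal interrupted windows 14 of 64 proliferating peaks (21.9%) were that wide. The median of a single window reached 300 bp only at 2 places among them. These were 85 to 86 Mb on chromosome 1 (330 bp, 20 peaks) and 20 to 21 Mb on chromosome 8 (934.5 bp, 2 peaks). The remaining internal windows had medians of 146 to 218 bp. In the last windows of chromosomes 0 of 116 peaks were that wide, which allows a share of up to 2.59% (3 counts of the total). The median of other windows thus lay within the interval of both sparse arrangements in the proliferating list, and outside both in the arrested list.

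Deposited scores, which the authors attached to peaks without a stated scale, were low in the same arrested peaks. The median score was 43.5 in thin windows (interval 42.5 to 47.6), 88.8 in interrupted windows (80.4 to 91.2) and 97.5 in other windows. Internal interrupted windows had 80.4 and last ones 91.2. Of thin-window peaks 45.5% (interval 43.0 to 48.0) had scores within the lowest 10% of the arrested list, against 9.64% of peaks in other windows. The share was 25.6% in internal interrupted windows and 11.3% in last ones. Among the highest 10% of the list were 2.83% of thin-window peaks and 10.5% of other peaks. In the proliferating list the medians were 24.4 in thin, 24.1 in interrupted and 24.4 in other windows, and 11.8% of thin-window peaks (interval 8.04 to 16.9) were among that list's highest 10%.

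**Figure D3:**
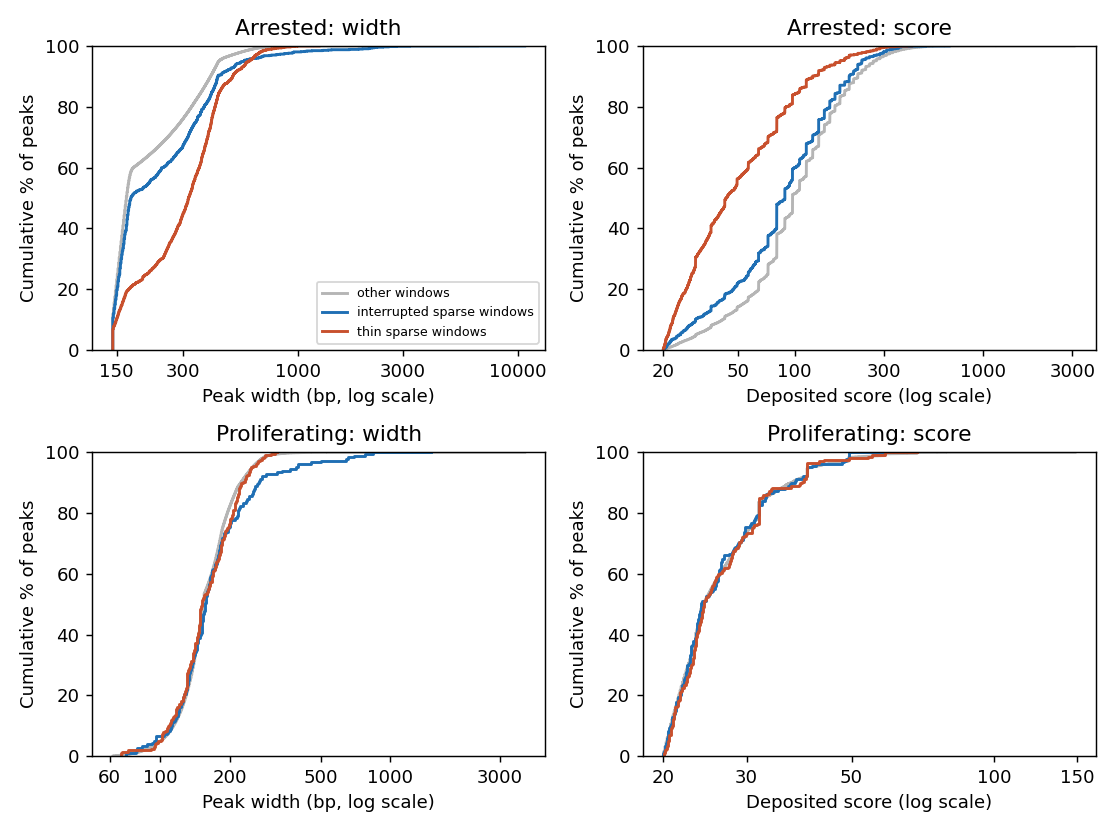
Cumulative percentage of peaks by width in bp (left) and deposited score (right), both on log axes, for the arrested (top) and proliferating list (bottom); lines are thin sparse, interrupted sparse and other windows. Arrested peaks of thin windows are shifted to larger widths (median 318 against 166 bp) and lower scores (43.5 against 97.5), and the proliferating lines nearly coincide apart from the widest peaks of interrupted windows.

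Scores of the broader thin-window peaks were lower at equal width as well. Among arrested peaks of 300 bp to below 500 bp the median score was 30.4 in thin windows (interval 29.0 to 31.9, 681 peaks), 54.7 in interrupted windows (47.6 to 60.2) and 55.5 in other windows. From 200 bp to below 300 bp it was 42.5, 64.3 and 80.4 in that order. From 150 bp to below 200 bp it was 97.5 in thin windows (interval 88.8 to 97.5) and 115.4 in both of the others. Below 150 bp the medians were 115.4 in each. The narrow peaks of thin windows were thus few, 9.88% of thin-window peaks against 21.3% elsewhere, but had ordinary scores.

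Window by window, 12 of the 18 thin windows combined a median arrested width of at least 300 bp with a median score of at most 50. Over all windows 1.06% reached that width and 0.924% had a score that low. Among the thin windows, the run on chromosome 14 was the most extreme, with a median width of 368 bp and a median score of 31.2 over its 364 arrested peaks, and 67.9% of them (interval 62.9 to 72.5) in the lowest 10% of the list. None of those 364 peaks was in the highest 10%, which allows a share of up to 0.824%. The run on chromosome 12 from 22 to 25 Mb had a median of 343 bp and 40.7 over 197 peaks. Thin windows outside these runs had 291 bp and 55.5 over 957 peaks. The proliferating peaks of the runs numbered 44 and 29, with median widths of 150 and 145 bp.

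The pair of thin windows in the Skint region of chromosome 4 went the other way. From 112 to 113 Mb the 52 arrested peaks had a median width of 161 bp and a median score of 88.8, and from 113 to 114 Mb the 121 peaks had 161 bp and 97.5, both as in other windows. Their 4 and 13 proliferating peaks were no wider, with medians of 129 and 147 bp. Intermediate values were found from 42 to 43 Mb on chromosome 4, the region of the duplicated chemokine genes (225 bp, 64.3), from 22 to 23 Mb on chromosome 8 (245 bp, 73.2) and from 175 to 176 Mb on chromosome 2 (289 bp, 72.2). The Mup-region window, with 365 bp and 35.9, belonged to the broad group, and its 26 proliferating peaks had a median of 185 bp.

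**Figure D4:**
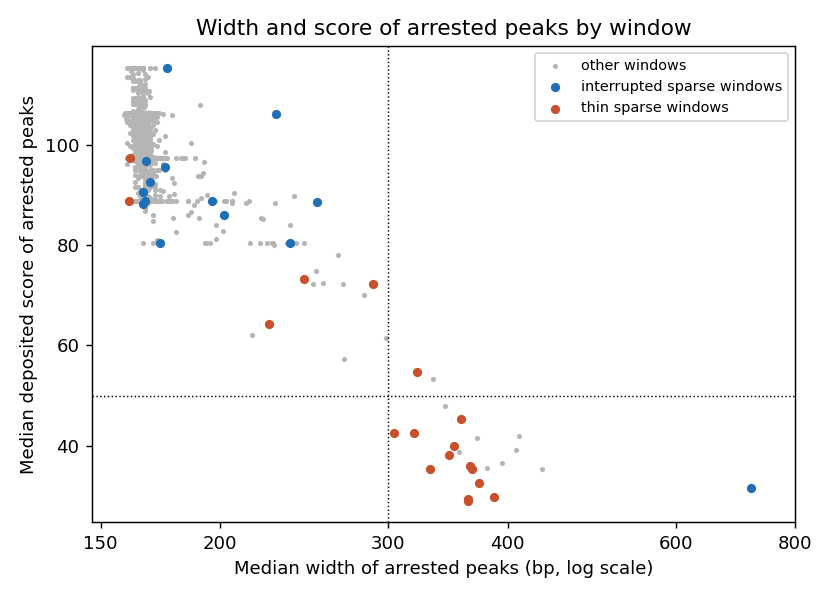
Median width in bp (x axis, log scale) against median deposited score (y axis) of the arrested peaks of each window, 1 point per window, with dotted lines at 300 bp and 50; the window from the defensin region with 3 peaks and a median of 2810 bp is off the axis. The lower right corner holds 12 of the 18 thin windows together with 8 other windows, and interrupted windows lie with the other windows except for 1 on chromosome 1.

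Broad, low-scoring arrested peaks were not limited to sparse windows. Of the 2240 other windows, 9 had a median width of at least 300 bp and 8 of these a median score of at most 50. They included the densest windows of chromosome 4, from 145 to 147 Mb, with 370 arrested peaks each and medians of 411 and 409 bp, those from 94 to 96 Mb on chromosome 5 with 262 and 283 peaks, and those from 42 to 45 Mb on chromosome 14 with 179, 176 and 231 peaks. Chromosome 12 from 20 to 21 Mb, which adjoins the sparse pair there, had 168 peaks with a median of 344 bp. Over the 16 windows that border thin windows without being sparse, the median width was 171 bp (interval 170 to 174) and the median score 93.8. These medians were near those of all other windows (166 bp and 97.5), with a small shift the same way as in thin windows. Peaks of at least 300 bp made up 30.9% there against 24.1% in all other windows, and scores in the lowest 10% made up 15.2% against 9.64%.

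The few arrested peaks of thin windows were individually longer, with a mean width of 327 bp against 229 bp in other windows. This was not particular to thin windows. Interrupted windows had a mean of 297 bp, with 402 bp in internal and 242 bp in last windows. The median covered length per sparse window was 18.9 kb in the arrested list (3.32 to 52.7) and 1.87 kb in the proliferating list, against 63.0 and 7.11 kb in other windows. The arrested part of this contrast is largely set by the choice of windows, since covered length grows with the number of peaks. Thin windows had a median of 27.1 arrested kb and interrupted windows 17.3 kb. The Mup-region window had the most with 52.7 kb, followed by the window from 85 to 86 Mb on chromosome 1 with 52.2, from 11 to 12 Mb on chromosome 5 with 43.2, from 19 to 20 Mb on chromosome 12 with 39.8, and from 22 to 23 Mb on chromosome 8 with 38.6 kb. As a share of a full 1 Mb per window, arrested peaks covered 2.75% of thin, 1.91% of interrupted and 6.32% of other windows. That length includes any part of a last window beyond the chromosome's end, so the interrupted share is not one of real bases.

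The window from 85 to 86 Mb on chromosome 1 reached its covered length with 56 arrested peaks. Their median width was 720 bp and their median score 31.6, and its 20 proliferating peaks had a median of 330 bp, so both lists held broad peaks there. Of the 21 arrested peaks of at least 1000 bp in sparse windows, 17 lay in this window and 3 in the defensin-region window; the share was 0.845% of sparse-window peaks (interval 0.553 to 1.29) and 0.0424% elsewhere. The widest arrested member was 10736 bp on chromosome 8 (20027342 to 20038077, score 76.02). The next were on chromosome 1 at 85091237 (3227 bp, score 66.86), on chromosome 8 at 20006719 (2810 bp, score 42.26) and on chromosome 1 at 85247008 (2598 bp) and 85160263 (2435 bp).

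The widest proliferating members came from the same places. The widest, on chromosome 8 from 20009101 to 20010603, measured 1503 bp with a score of 28.66 and overlapped the 2810 bp arrested peak. The other 4 of the widest 5 were on chromosome 1, at 85261493 (847 bp), 85289570 (780 bp), 85100541 (699 bp) and 85158740 (656 bp), and the last pair of these overlapped arrested peaks.

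Of the arrested members 4.79% (interval 4.02 to 5.70) were among the highest 10% of their list, against 10.5% of peaks in other windows. The share was 2.83% in thin windows and 9.13% (interval 7.13 to 11.6) in the sparse last windows of chromosomes. The highest score was 664.24, for a 168 bp peak in the last window of chromosome 12 (121241894 to 121242061), rank 141 of the arrested list. Next in score came chromosome 1 at 197076684 (148 bp, score 498.52, rank 1396), chromosome 5 at 152141515 (155 bp) and chromosome 8 at 22064106 (153 bp), both with a score of 419.89, and chromosome 12 at 18058292 (165 bp, score 394.40). The first 3 of these 5 lay in last windows of chromosomes, which held 635 of the 2485 arrested members. Among proliferating members the top score was 68.75 (rank 135), in the Skint region of chromosome 4 (113585953 to 113586024, 72 bp). Peaks of 68, 92 and 67 bp with a score of 58.79 followed on chromosome 14 at 4947399, chromosome 19 at 61149324 and chromosome 4 at 42879807, then a 218 bp peak on chromosome 4 at 60062825 with 55.21. None of these 10 overlapped a peak of the other list. Of all peaks on the chromosomes used, only 1.84% of arrested and 11.6% of proliferating peaks did. With shares this low, 10 peaks are too few to tell whether high-scoring members overlapped less often than other peaks.

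Sharing between the lists was as frequent in sparse windows as elsewhere within counting error. Of the 384 proliferating members 46 overlapped an arrested peak by at least 1 bp (12.0%, interval 9.10 to 15.6), against 11.6% of all proliferating peaks on the chromosomes used. Of the 2485 arrested members 46 overlapped a proliferating peak (1.85%, interval 1.39 to 2.46), against 1.84%. By arrangement, 19 of 204 proliferating peaks were shared in thin windows (9.31%, interval 6.04 to 14.1) and 27 of 180 in interrupted windows (15.0%, interval 10.5 to 20.9). In the runs of chromosomes 14 and 12 there were 2 and 1 shared pairs. The chance of an overlap depends on how much of a window the other list covers. Per full 1 Mb this cover was lower in both arrangements than in other windows, and the shares were not adjusted for it.

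The shared pair with the highest arrested score was in the last window of chromosome 14. Its arrested peak ran from 125024706 to 125024862 with a score of 250.08, and its proliferating peak from 125024740 to 125024950 with a score of 20.56. The second, on chromosome 8, joined an arrested peak from 22089555 to 22089698 (score 195.13) with a proliferating one from 22089639 to 22089740 (31.82), sharing 60 bp. The third, on chromosome 5, joined 152421280 to 152421431 (163.94) with 152421373 to 152421556 (23.33), sharing 59 bp.

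The difference in arrested width shrank among higher-scoring peaks and when the other list chose the windows. When only the upper 50% of the arrested list by score was kept, the median width was 159 bp in sparse and 158 bp in other windows. Score and width are tied, however. In other windows the median score was 115.4 from 150 bp to below 200 bp and 55.5 from 300 bp to below 500 bp. The filter thus takes out many wide peaks in both groups, and the smaller difference is partly set by it. When windows were taken by their proliferating count instead, with at most 21 peaks, the arrested median was 185 bp (interval 177 to 194) in the 51 windows so chosen, against 166 bp in the remaining windows. Of those 51, 20 are no sparse windows and hold 4840 arrested peaks. Whether assembly gaps, repeated sequence or copy number differ between thin, interrupted and other windows was not tested, since no mm9 sequence or annotation was used.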

How the data were processed

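The pRb immunoprecipitates of both growth states were analysed, 1 library each, grouped by their titles. The build mm9 and the tools Bowtie2, HOMER, MACS2 and bedtools are listed by the submitters' processing notes; their versions, settings and any use of inputs are not stated there. The authors deposited 1 list per library with 5 columns and no header: chromosome, start, end, name and score. The deposited score starts at 20 in both lists, has no stated scale and was compared only within a list. Lists hold no read counts, so depth per peak is unknown.

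From these lists, windows, widths, end-to-start distances, covered bases and overlaps (at least 1 bp) were computed with SciPy 1.17.1, pandas 2.3.3, numpy 2.4.6 and Python 3.11.15; matplotlib 3.10.9 drew the figures. Printed coordinates are mm9, 1-based. A peak belongs to the window of its start, and sparse windows held 1 to 137 arrested peaks. Intervals are 95%, Wilson for shares and binomial order statistics for medians. No test between growth states or window groups was made. The code was tested on simulated lists. The windows and comparisons were chosen with earlier results of these data known. Named windows are those with the fewest or most peaks or most covered bases, those beside the limit and all runs of 3 or more; named peaks are the 5 highest-scoring and 5 widest per list and the 3 best shared pairs. The division into thin and interrupted windows, other windows named for broad peaks, and the windows with intermediate widths were chosen after values were seen. Alternatives are given in the closing section.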

Additional observations from a re-analysis of the deposited data

How the results depend on the processing

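Of 97 values under 10 alternatives to 12 results, 53 lay inside the reported value's interval (or within 1.5 times the number of windows), 37 moved and 7 changed the order of sparse and other windows. Sparse windows numbered 57 with a limit of 200 arrested peaks and 51 when chosen on the proliferating list. The settings are named below as follows: limits of 100 and 200 arrested peaks, windows shifted by 500 kb, first and last windows left out, chromosome 7 included, and windows chosen on the proliferating list. In that order, arrested median widths were 270, 234, 255, 308.5, 296.5 and 185 bp, and arrested median scores 66.2, 80.4, 72.2, 49.5, 56.8 and 88.8. Arrested spacing was 2990 bp with the limit of 200, 3126 bp with shifted windows, 4052 bp without first and last windows and 2735 bp in windows chosen on the proliferating list. Proliferating spacing was 15618, 16930, 16122, 26534 and 29222 bp, for the limits of 100 and 200, shifted windows, no first and last windows, and windows chosen on the proliferating list. Covered bases moved to 36.1 kb (arrested) and 2.93 kb (proliferating) with the limit of 200, where the median proliferating count was 18, and to 37.1 arrested kb in windows chosen on the proliferating list.

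Keeping the upper 50% by score gave arrested medians of 159 bp, a score of 136.5 and 3.72 kb, proliferating medians of 30.8 for score, 1.05 kb and 6 peaks per window, and shared shares of 3.08% of proliferating and 0.836% of arrested peaks; fewer peaks follow from the filter itself. The order turned in 7 cases: proliferating width (152 bp in windows chosen on the proliferating list and 158 bp in the upper 50%, against 153 and 162 bp elsewhere), the arrested share overlapping (1.72% both without first and last windows and with chromosome 7, 1.29% in windows chosen on the proliferating list, 0.836% in the upper 50%) and the proliferating share in the upper 50%. The reported differences in these quantities lay within their intervals. Overlap of at least 50% of the proliferating peak gave 8.33%. Leaving out the runs on chromosomes 12 and 14, chosen after seeing the data, gave arrested medians of 247 bp, 74.0 and 3126 bp of spacing. Of the remaining moves, the cause was not tested. Each growth state had 1 library, so no replicate could be left out.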
